A study of Rattus norvegicus with 6 samples.

Results

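Transcripts of the NMDA receptor subunits were measured in hippocampi from male Wistar rats after orchidectomy, the removal of both testes, or after a sham operation. The members were the probes whose RefSeq accession on the array belongs to Grin1, Grin2a, Grin2b, Grin2c, Grin2d, Grin3a or Grin3b, and every probe of each gene was taken. They came to 7 of 15154 named genes and 9 of 30367 non-control probes, 2 each for Grin1 and Grin3a and 1 for each of the other 5 genes. The animals were operated on at 2 months of age and the hippocampus was collected 2 weeks later, under ketamine and medetomidine anaesthesia in both groups. Each group held 3 biological replicates, 1 array per replicate, read in 1 channel (Cy3) from 200 ng of total RNA. Orchidectomy removes all products of the testis, not androgen alone, and no group with hormone replacement was analysed here.

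NMDA receptors are glutamate-gated cation channels of 4 subunits that admit calcium when glutamate and a co-agonist, glycine or D-serine, are bound and the membrane is depolarized. Each holds the obligatory GluN1 subunit, encoded by Grin1, with GluN2 subunits (Grin2a to Grin2d) that bind glutamate and set the channel's kinetics, or with glycine-binding GluN3 subunits (Grin3a, Grin3b). In the hippocampus these receptors are known for their part in long-term potentiation and depression at excitatory synapses of pyramidal and granule cells. GluN2A and GluN2B are the main GluN2 subunits of these principal cells, and GluN2B prevails early in life.

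Each value is a log2 intensity minus its array's 75th percentile, so 0 is the level of that percentile. Differences are orchidectomized minus sham. A probe's brightness depends on its own sequence, so levels of different subunits were not ranked against each other. Each array had 23788 to 26176 probes well above background, and none of the 9 subunit probes was saturated or flagged as an outlier on any array. Precision is limited by the small number of arrays. The replicates are separate biological samples by the labels, and p-values set each group difference against the spread between them. That spread includes any difference between slides and scan days.

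The array labelled sham 2 stood apart from the other 5. Over 24162 probes its correlation with each other array was 0.802 to 0.811, where the remaining pairs had 0.988 to 0.996 (a description, since probes share arrays). All 12 measured marker genes of glutamatergic neurons were lower on it by over 1 log2 unit. Neurod6, a transcription factor gene of pyramidal neurons, had -6.81 on it and 2.18 to 2.78 on the others, and Slc17a7, which encodes a vesicular glutamate transporter of these cells, did not clear background. Choroid plexus markers were high instead, a median of 8.56 log2 units above the other arrays over 15 genes, with the tight junction gene Cldn2 at 4.77 against -7.73 to -5.52. Excitatory neuron markers were thus well expressed on 5 of 6 arrays labelled hippocampus, called the hippocampal arrays below, and every comparison is given with and without this array. In bulk tissue, fewer cells of a type and less RNA per cell cannot be told apart.

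Promoters of 4 of the 7 genes were matched by symbol in RefSeq's table for the GRCr8 assembly, each running from 250 bases before to 50 after the gene's start. Those of Grin1 and Grin3a are shown because their probes varied most among the 5 alike arrays, and the removed organ is the main source of androgen. Capitals mark matches, on either strand, to the GC box GGGCGG, to TGACG (the half-site bound by cAMP response factors) or to AGAACA (an androgen receptor half-site). The Grin1 sequence lies at chr3:28528705-28529004 and the Grin3a sequence at chr5:69001509-69001808, both printed 5′ to 3′ on the minus strand.
Grin1: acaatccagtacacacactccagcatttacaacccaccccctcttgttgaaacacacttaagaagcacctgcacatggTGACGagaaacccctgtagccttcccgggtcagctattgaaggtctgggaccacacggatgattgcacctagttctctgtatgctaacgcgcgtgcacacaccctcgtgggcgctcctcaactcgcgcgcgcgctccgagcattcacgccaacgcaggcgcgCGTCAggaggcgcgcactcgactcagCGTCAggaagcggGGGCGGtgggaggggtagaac
Grin3a: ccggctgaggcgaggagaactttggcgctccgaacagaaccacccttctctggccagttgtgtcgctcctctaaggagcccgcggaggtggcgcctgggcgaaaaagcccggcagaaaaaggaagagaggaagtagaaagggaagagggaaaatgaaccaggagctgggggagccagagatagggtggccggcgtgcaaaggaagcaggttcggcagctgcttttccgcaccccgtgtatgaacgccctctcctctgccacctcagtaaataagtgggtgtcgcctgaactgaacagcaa

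The Grin1 window held 1 GC box and 3 matches to TGACG, none overlapping, and the Grin3a window held 0 matches to any of the 3 motifs. AGAACA was in 0 of the 4 subunit windows (Grin1, Grin2c, Grin2d, Grin3a), and 20.1% of all 27457 promoters in the table held it. The GC box was in 34.9% and TGACG in 22.0% of all promoters. The 4 windows had 58.7% to 60.7% G and C, against a median of 52.3% over all promoters. A match is a description of letters only, and no match says only that these letters are not in this window.

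The comparison asked whether hippocampal expression of the subunits differs between orchidectomized and sham-operated males. None of the 9 probes passed limma's Benjamini-Hochberg adjusted p of 0.05, with all 6 arrays or without the array labelled sham 2. The background was also 0% of tested probes in both comparisons. An unadjusted limma p under 0.05 was found for 0 of the 9 with 6 arrays (0.731% of 24631 tested probes) and for 2 of the 9 without that array (2.71% of 25208 tested probes). Both of these were probes of Grin3a, which measure 1 gene and are not independent.

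With 6 arrays all 7 genes had positive differences, a median of 1.64 log2 units over the brightest probe per gene, where all tested probes had a median of -0.02. The differences ran from 0.18 for Grin3b to 2.87 for Grin2a. Their intervals were wide: the limma 95% interval for Grin2a ran from -3.46 to 9.19. Without the array labelled sham 2, the median over the 7 genes was -0.08, 3 genes were above 0 and 4 below it, and all tested probes again had a median of -0.02. The sign of the median thus turned with that array.

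**Figure D1:**
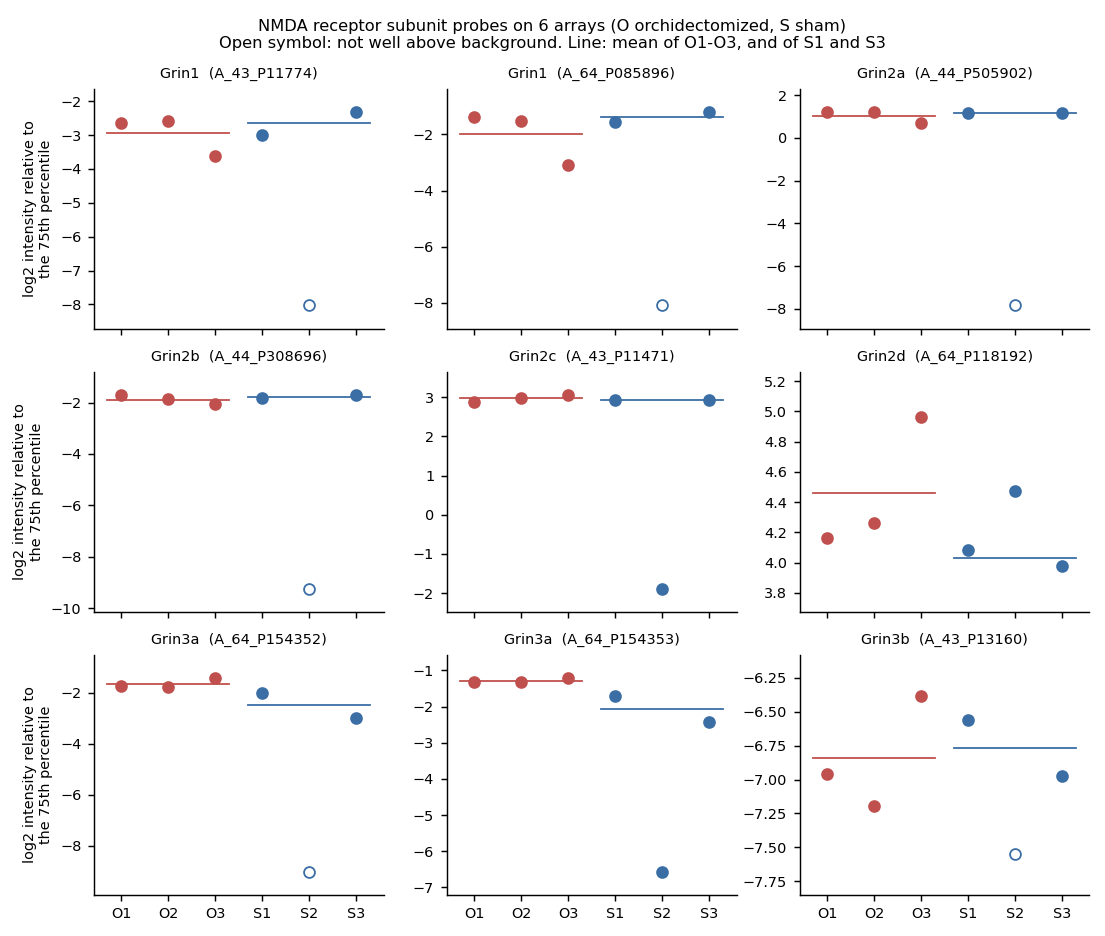
Log2 intensity relative to the array's 75th percentile (y, scale differing by panel) of the 9 NMDA receptor subunit probes on the 3 orchidectomized (O) and 3 sham (S) arrays; open symbols were not well above background, and lines are means of O1 to O3 and of S1 and S3. Sham 2 lies lowest in every panel but that of Grin2d, where its 4.47 falls within the range of the others.

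Grin1 was well above background on 5 of 6 arrays with both probes. Its brighter probe (A_64_P085896) had -1.37, -1.52 and -3.09 on orchidectomized 1 to 3, and -1.57, -8.09 and -1.20 on sham 1 to 3. The other probe (A_43_P11774) had -2.65, -2.57 and -3.62 on the orchidectomized arrays and -2.98, -8.03 and -2.32 on the sham arrays. Both probes were thus lowest on sham 2, next lowest on orchidectomized 3 and highest on sham 3, and the groups overlapped. Without sham 2 the orchidectomized mean of the brighter probe was -1.99 ± 0.95 (SD, n = 3) and the sham mean -1.39 ± 0.26 (SD, n = 2). The difference was -0.60 (standard error, SE, 0.54; limma adjusted p 0.988). It was -0.06 when orchidectomized 3 was left out as well. The other probe differed by -0.30 (SE 0.38; limma adjusted p 0.988), and by 0.04 without orchidectomized 3.

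Orchidectomized 3 set most of the spread of Grin1. On that array the brighter probe lay 1.64 log2 units under the median of the other 4 hippocampal arrays, a departure of -1.64 or 3.12-fold, and the other probe lay 2.00-fold under it. Only 0.128% of the 24162 probes bright on the 5 arrays had a lower departure there than the brighter probe, and 1.19% of them were lower by over 1 log2 unit. The size differed between the 2 probes of the gene. The 12 measured glutamatergic neuron markers had a median departure of -0.39 on the same array, 9 of 12 lower, and the lowest of them had -0.65. Their mean log2 level there was 0.08, against 0.27 to 0.44 on the other 4. The 6 CA1 pyramidal markers had a median of -0.45, 4 of 6 lower. The lowest CA1 marker had -0.90. The 7 CA2 and CA3 pyramidal markers had a median of -0.12, 5 of 7 lower, from -1.27 for the CA2 marker Rgs14 to 0.90. The part of these shifts in the Grin1 values was not tested.

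Grin2a, which encodes the GluN2 subunit with the fastest deactivation, lay near or above the 75th percentile on the 5 hippocampal arrays. It had 1.19, 1.21 and 0.68 on orchidectomized 1 to 3, and 1.18, -7.85 and 1.15 on sham 1 to 3. Apart from sham 2, only orchidectomized 3 departed from a level of about 1.2, by -0.50. Without sham 2 the means were 1.03 ± 0.30 (SD, n = 3) and 1.17 ± 0.02 (SD, n = 2), and the difference was -0.14 (SE 0.20; limma adjusted p 0.988, 95% interval -0.63 to 0.35). It was 0.03 when orchidectomized 3 was left out as well.

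Grin2b, the gene of the GluN2B subunit that binds calcium/calmodulin-dependent kinase II, had -1.72, -1.87 and -2.07 on the orchidectomized arrays and -1.84, -9.24 and -1.71 on the sham arrays. The 5 hippocampal arrays lay within 0.36 log2 units of each other, and the groups overlapped. The difference without sham 2 was -0.11 (SE 0.16; limma adjusted p 0.988, 95% interval -0.50 to 0.27). The interval spans 0, which does not show that the groups were alike.

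Grin2c, whose subunit is best known from cerebellar granule cells and astrocytes, was the steadiest member. It had 2.88, 2.97 and 3.05 on the orchidectomized arrays and 2.93, -1.88 and 2.93 on the sham arrays. Its range over the 5 hippocampal arrays was 0.17, against a median range of 0.46 over all bright probes, and 6.09% of those probes had a smaller one. The difference without sham 2 was 0.04 (SE 0.13; limma adjusted p 0.988, 95% interval -0.27 to 0.35). Grin2c was also 1 of 2 genes besides Grin3a with a probe still well above background on sham 2, where the other 5 arrays were 28.5-fold brighter.

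Grin2d, the GluN2 subunit gene known from interneurons and midbrain, had a pattern of its own. Its probe had 4.16, 4.26 and 4.96 on the orchidectomized arrays and 4.08, 4.47 and 3.98 on the sham arrays. Sham 2 was not low here but second highest after orchidectomized 3, and its departure from the other 5 was 0.31. The GABAergic interneuron list had a median departure of -5.44 on sham 2, 10 of 11 genes lower. On orchidectomized 3, where Grin2d departed by 0.84, the same list had a median of 0.29, 7 of 11 higher and 2 of them by over 1 log2 unit. The part of these markers in the Grin2d values was not tested. Without sham 2 the groups did not overlap, with orchidectomized higher, as at 6.24% of all tested probes. The means were 4.46 ± 0.44 (SD, n = 3) and 4.03 ± 0.08 (SD, n = 2). The difference was 0.43 (SE 0.26; limma adjusted p 0.988), and 0.18 on dropping orchidectomized 3 too. In the gene table of the GRCr8 assembly Grin2d overlaps its neighbour Grwd1. The files give no position for the probe, so whether it reads Grin2d alone was not tested.

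Grin3a, the gene of a glycine-binding subunit that lowers the calcium permeability of the receptor, was the member with the most separate groups. Probe A_64_P154353 had -1.32, -1.32 and -1.21 on orchidectomized 1 to 3, and -1.71, -6.56 and -2.42 on sham 1 to 3. Probe A_64_P154352 had -1.74, -1.77 and -1.43 on the orchidectomized arrays and -2.03, -9.00 and -2.98 on the sham arrays. All 3 orchidectomized arrays lay above all 3 sham arrays with both probes. The groups did not overlap with orchidectomized higher at 2 of the 9 subunit probes, both of Grin3a, against 3.26% of all tested probes with 6 arrays (8% in either direction). Without sham 2 this held for 3 of the 9, with Grin2d the other one, against 6.24% of all tested probes (16.3% in either direction). The opposite order was found at 0 of the 9 in either comparison, against 4.74% and 10% of all tested probes.

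Without sham 2 the orchidectomized mean of Grin3a probe A_64_P154353 was -1.29 ± 0.06 (SD, n = 3) and the sham mean -2.07 ± 0.50 (SD, n = 2). The difference was 0.78 (SE 0.23; limma unadjusted p 0.0153, adjusted p 0.988). Probe A_64_P154352 differed by 0.85 (SE 0.30; limma unadjusted p 0.0311, adjusted p 0.988). Both differences thus failed the correction over all probes. Their size rested largely on sham 3, which departed from the median of the other 4 by -1.10 and -1.22, and sham 1 by -0.39 and -0.27. Without sham 3 the differences were 0.42 and 0.38, and without sham 1 they were 1.13 and 1.33. Between orchidectomized 3 and sham 1, which shared a slide, they were 0.50 and 0.60. Blocking on scan day, which sets the 3 orchidectomized arrays against sham 1, they were 0.42 and 0.38.

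Other markers were low on sham 3 too. Choroid plexus genes had a median departure of -0.97 there, 14 of 15 lower, and astrocyte genes of -0.21, 8 of 10 lower. The mean log2 level of the choroid plexus list was -4.31 on sham 3 and -3.92 to -2.94 on the other 4 hippocampal arrays. Glutamatergic neuron genes were not low, with a median departure of 0.20, and GABAergic interneuron genes had 0.13. On sham 1, myelin genes had a median departure of 0.35, 11 of 11 higher, and thalamus and habenula genes of 0.69, 7 of 8 higher. Without sham 2, 9 of 11 myelin genes were lower in orchidectomized arrays (median difference -0.27) and 12 of 14 choroid plexus genes higher (0.27), none past the adjusted threshold. The myelin gene Cldn11 differed by -0.60 (limma unadjusted p 0.00704, adjusted p 0.988). The largest choroid plexus difference was 1.58 (limma unadjusted p 0.00182, adjusted p 0.988), and Cldn2 differed by 1.15. The part of these lists in the Grin3a values was not tested. On sham 2 both Grin3a probes were lowest and choroid plexus markers highest. The glutamatergic and GABAergic lists were low there too, with median departures of -7.27 and -5.44.

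Grin3b, the subunit gene known from motor neurons, was barely above background. It had -6.96, -7.19 and -6.38 on the orchidectomized arrays and -6.56, -7.55 and -6.98 on the sham arrays. The processed signal was 13.4 to 20.5 units on the 5 hippocampal arrays and 9.88 on sham 2, where it was not well above background. The groups overlapped, and the difference without sham 2 was -0.08 (SE 0.28; limma adjusted p 0.988). Its sign turned with normexp background correction, to 0.30, and with quantile normalization, to 0.29.

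**Figure D2:**
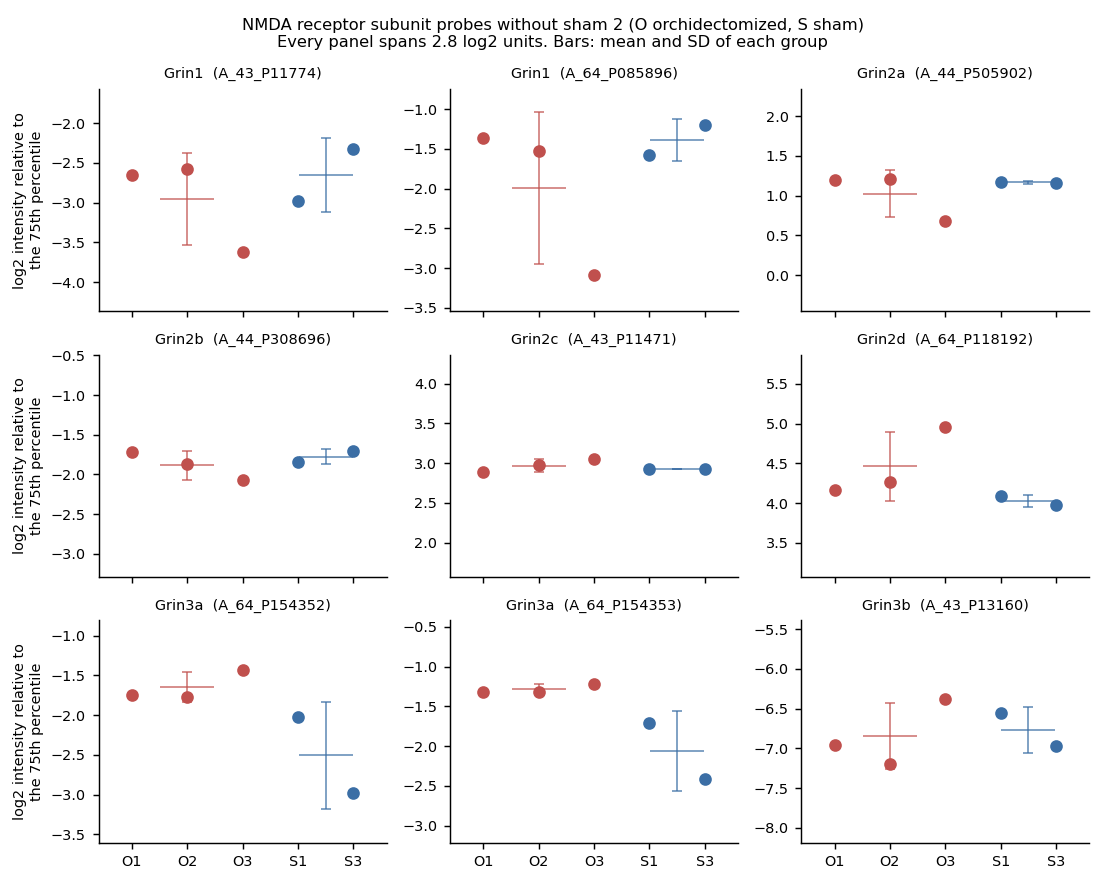
Log2 intensity relative to the array's 75th percentile (y) of the same 9 probes on the 5 arrays without sham 2 (x), each panel with the same span; bars are the mean and SD of 3 orchidectomized (O) and 2 sham (S) arrays. Both Grin1 probes are lowest on O3, both Grin3a probes are higher on all O arrays than on S1 and S3, and Grin2c spans 0.17 log2 units.

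**Figure D3:**
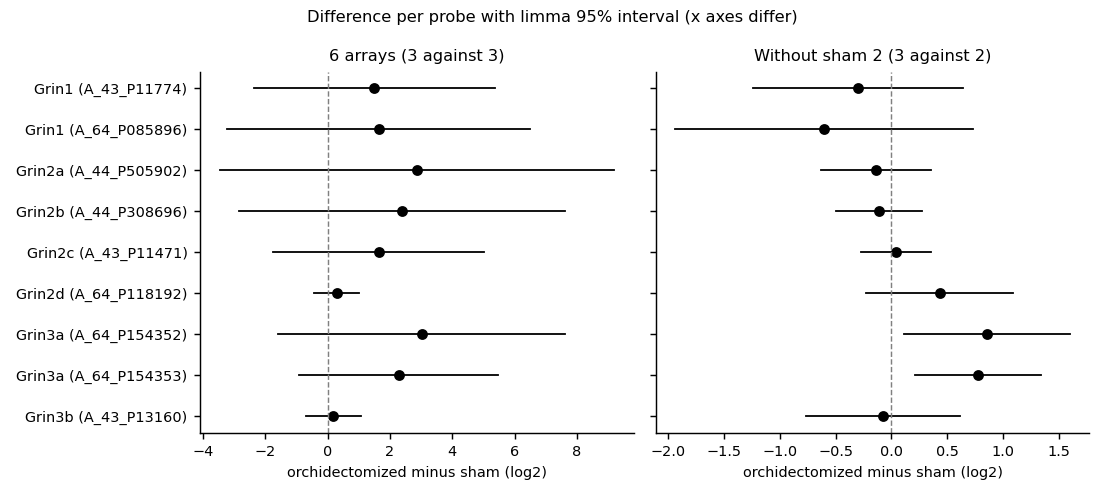
Orchidectomized minus sham (x, log2 units) for each subunit probe (y) with limma's 95% interval, from 6 arrays (left) and without sham 2 (right); the x axes differ. The right intervals of the 2 Grin3a probes lie above 0 before correction over all probes, and their adjusted p was 0.988.

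As a description of 1 array, 6 of the 7 genes were below the median of the others on the array labelled sham 2. This was by the brightest probe per gene, and 5 of the 7 were lower by over 1 log2 unit. Of the 24162 probes bright on the other 5 arrays, 12165 were lower on sham 2, and 24.3% of all by over 1 log2 unit. The other 5 arrays were at least 388-fold brighter for Grin2a, at least 51.1-fold for Grin2b and at least 54.5-fold and 25.8-fold for the probes of Grin1. For Grin3a they were at least 46.1-fold brighter with A_64_P154352, and 31.2-fold with A_64_P154353, which was well above background there. For Grin3b the figure was at least 1.63-fold. The folds marked "at least" set the mean of the 5 arrays against the lowest signal well above background on sham 2. The 12 glutamatergic neuron markers had a median departure of -7.27 on that array, all 12 lower, beside -9.03 for Grin2a and -7.40 for Grin2b. Neither subunit probe was well above background there, so the size of its departure is not exact. The 10 astrocyte markers had -4.62, beside -4.81 for Grin2c. Other lists had similar medians: -4.56 for dentate granule, -4.47 for CA2 and CA3 pyramidal and -4.44 for myelin genes. The part of cell content in these values was not tested.

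**Figure D4:**
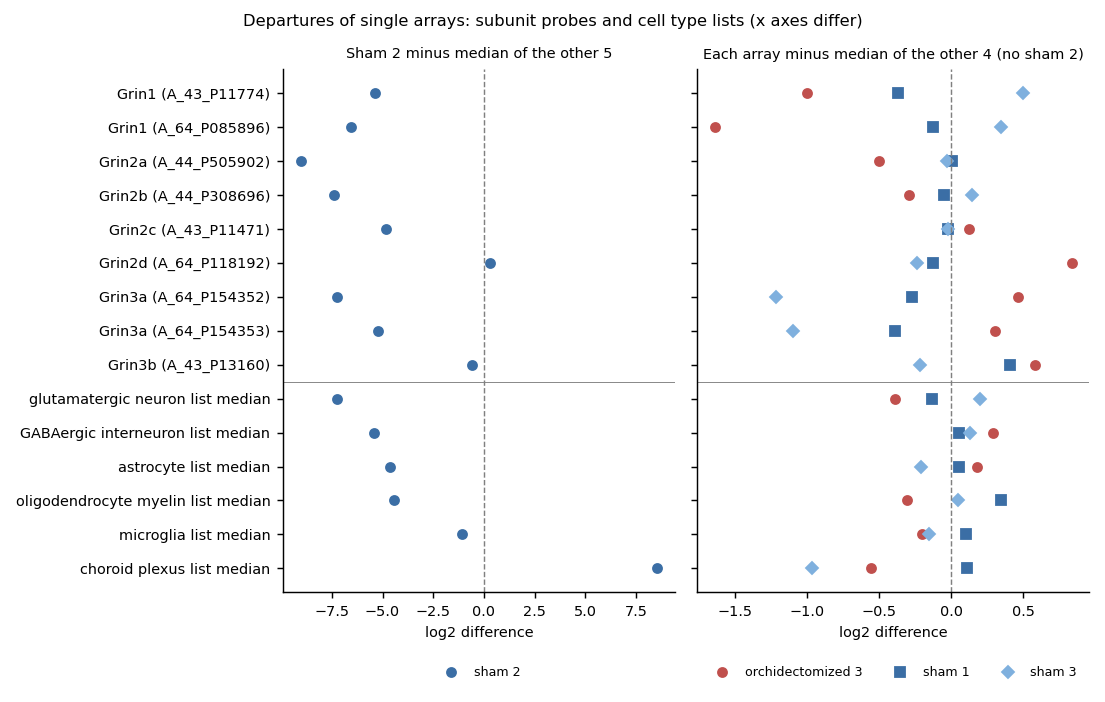
Departure of single arrays (x, log2 units) for the 9 subunit probes and the medians of 6 cell type lists (y): sham 2 against the median of the other 5 arrays (left), and orchidectomized 3, sham 1 and sham 3 each against the median of the other 4 without sham 2 (right). On sham 2 the probes of Grin1, Grin2a, Grin2b, Grin2c and Grin3a lie between -9.03 and -4.81 and the choroid plexus list at 8.56; on the right, Grin1 is lowest on orchidectomized 3 and Grin3a on sham 3.

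The genes whose profile over the 6 arrays was most like a subunit's were found by the smallest root mean square difference of mean-centred values, among 12547 genes. For Grin2b they included Ppp2r2b and Cdh8, at 0.06 and 0.07 log2 units. For Grin2a they were Opcml, Gpr158 and Slc24a2, at 0.08, 0.09 and 0.10. For Grin1 they were Rgs14, Cd3e and Gatm, at 0.16, 0.20 and 0.28, so no gene followed Grin1 as closely as others followed Grin2a and Grin2b. Rgs14, a marker of CA2 pyramidal neurons, had a departure of -6.52 on sham 2. Sham 2 sets most of these profiles, and the Grin1, Grin2a and Grin2b probes were not well above background there. Their likeness to other genes is thus not exact.

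Genes that act with the receptor were taken from 4 lists chosen by role. In each list 0 probes passed the adjusted threshold and 0 had an unadjusted limma p under 0.05, with 6 arrays or without sham 2. Over all tested probes 0% passed the adjusted threshold in both comparisons. The unadjusted shares were 0.731% with 6 arrays and 2.71% without sham 2. With 6 arrays the lists held 29 tested probes of scaffold and traffic, 31 of signalling, 25 of supply and 16 of other receptors. Counts of 0 are near these shares. Without sham 2 the 22 tested genes of scaffold and traffic had a median difference of -0.07 (8 higher, 14 lower), beside -0.02 over all tested probes. Dlg4, which encodes PSD-95, the scaffold that anchors GluN2 subunits, differed by -0.08 (SE 0.24; limma adjusted p 0.988). Dlg3 (SAP102) differed by -0.11 and Dlg1 (SAP97) by 0.12. Neto1, an auxiliary protein of kainate receptors that also associates with NMDA receptors, differed by -0.04. Pacsin1, whose protein takes part in the endocytosis of GluN3A, differed by -0.17 and the gene Grina by -0.06. No probe was named Kif17 here.

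The 23 tested genes of signalling had a median of 0.03 without sham 2 (13 higher, 10 lower). Camk2a, the kinase subunit activated by calcium entry through the receptor, differed by -0.10 (SE 0.19; limma adjusted p 0.988). Fyn, a kinase of GluN2 subunits, differed by 0.10. Nos1, the neuronal nitric oxide synthase gene, differed by 0.47 (SE 0.30; limma adjusted p 0.988). It had -4.97, -5.18 and -4.25 on the orchidectomized arrays and -5.12 and -5.42 on sham 1 and 3, so orchidectomized 3 was highest and the groups overlapped. No probe was named Ptpn5 here.

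The 21 tested genes of co-agonist and glutamate supply had a median of 0.02 without sham 2 (12 higher, 9 lower). Srr, the serine racemase gene, differed by 0.07, and Slc7a10, a D-serine and glycine transporter gene, by 0.15. Slc1a2, the astrocyte glutamate transporter gene, differed by 0.34 (SE 0.16; limma adjusted p 0.988). Its groups did not overlap, with 3.46 to 3.68 on the orchidectomized arrays and 3.39 and 3.04 on sham 1 and 3. The same order was found at 6.24% of all tested probes without sham 2 (16.3% in either direction). Slc17a7 differed by -0.16. Dao, the D-amino acid oxidase gene, was well above background on 2 of 6 arrays and was not tested.

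The 11 other ionotropic receptor genes had a median of 0.09 without sham 2 (7 higher, 4 lower). The AMPA receptor genes Gria1 and Gria2 differed by 0.06 and -0.23, and the kainate receptor gene Grik4 by -0.01. On sham 2 all 11 were lower than the median of the other arrays, with departures of -8.38 to -1.83. With 6 arrays the list medians were 2.20 for these receptors, 0.52 for scaffold and traffic, 0.77 for signalling and 0.64 for supply. The NMDA receptor genes had 1.64 in the same comparison. Dlg1 and Slc7a10 went the other way with 6 arrays, at -0.42 and -0.45, and had their highest values on sham 2, -0.98 and 2.83. In all, 3 of 22 measured genes of scaffold and traffic were higher on sham 2 than the median of the other arrays. So were 4 of 23 genes of signalling and 8 of 22 of supply.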

How the data were processed

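Per the file headers, each array was read in 1 channel with Agilent Feature Extraction 10.5.1.1, and the deposited processed signal is an intensity from which the scanner software took background and spatial trend. Its deposited flags (saturated, outlier, well above background) were used as they stand. The authors' deposited log2 values equal the log2 processed signal plus 1 constant per array, a median of -0.32 to 0.72. Their medians per array were 8.02, 7.94 and 7.91 (orchidectomized 1 to 3), then 7.77, 7.62 and 8.05 (sham 1 to 3). How they were centred stays unknown; direction does not arise with 1 colour. Per the file headers the build is rn4, which is not that of the reference.

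Control spots (1377 of 44254) and outlier spots were left out, spots of a probe averaged as log2, and each array's 75th percentile subtracted. A probe was well above background when at least 50% of its spots were. Accessions without versions named 18004 of 30367 probes through the GRCr8 gene table. A probe was tested if every array of either group had it well above background. The two-sided test used limma 3.58.1 (lmFit, eBayes; R 4.3.3), and p-values were adjusted by Benjamini-Hochberg over all tested probes. The fit was tested on simulated data, independent normal values with 1 common SD per comparison. With 6 arrays it recovered 13 of 100 changes of 1 log2 unit and 94 of 100 of 2 log2 units. Without sham 2 it recovered 90 and 100 of 100. Real probes differ in their SD, so these shares do not hold for a given probe.

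Arrays lay on 4 slides and 2 scan days: orchidectomized 1 and 2 on 1 slide, orchidectomized 3 and sham 1 on another, sham 2 and sham 3 on 1 each; day 1 held the orchidectomized arrays and sham 1. All 7 members are named; the other named genes were fixed by role, with the 3 genes most like Grin1, Grin2a and Grin2b; 2 genes under this rule are not reported here. The members and lists were chosen with earlier results of these data known.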

Additional observations from a re-analysis of the deposited data

How the results depend on the processing

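None of the 9 subunit probes was called under any alternative run (background correction, scaling, brightness filter, the authors' values, variance model, array weights, blocks, and leaving out each array). The lowest limma adjusted p was 0.120 for Grin1 and Grin2d, under the slide block, where orchidectomized 3 and sham 1 alone carry the difference. Over all tested probes the calls without sham 2 were 251 of 26250 on leaving out sham 3, 22 on leaving out sham 1, 18 with the authors' values, 10 with scan day as a block, 2 with quantile normalization and 1 with median scaling. With 6 arrays they were 13 with array weights and 1 with quantile normalization, and 0 under the other alternatives of both comparisons. Counts of called probes stayed at 0 for the members and the 4 pathway lists, and 141 probe differences kept their sign in each comparison, while 15 turned with 6 arrays and 12 without sham 2. Median scaling moved the median of all tested probes to -0.10 with 6 arrays, and normexp moved it to 0.08 in both comparisons. Array weights gave sham 2 a weight of 0.03 and orchidectomized 3 a weight of 0.46.

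With 6 arrays, slide as a block turned Grin1 to -1.51 and -0.63, Grin2a to -0.50 and Grin2b to -0.23. Scan day as a block turned the brighter Grin1 probe to -0.42, Grin2a to -0.15, Grin2b to -0.047 and Grin3b to -0.29, and array weights turned Grin3b to -0.41. Leaving out 1 array gave -0.60 to 2.84 and -0.30 to 2.56 for Grin1, -0.14 to 4.37 for Grin2a, -0.11 to 3.65 for Grin2b and -0.078 to 0.42 for Grin3b, lowest without sham 2. Both blocks leave sham 2 without weight in the difference.

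Without sham 2, normexp turned Grin2c to -0.0032 and Grin3b to 0.30. Quantile normalization turned Grin3b to 0.29, slide as a block to 0.18, and the replicate block to 0.10. Array weights turned Grin2a to 0.0042, and scan day as a block the dimmer Grin1 probe to 0.034. Leaving out 1 further array gave -0.63 to 0.036 for that probe, -0.31 to 0.13 for Grin3b and -0.23 to 0.032 for Grin2a. Where 1 sham array was left, its spread was taken from the other group. The cause of these turns was not tested.

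The deviations of same-numbered arrays had correlations of 0.03, -0.02 and -0.02 over 24162 probes. Each value rests on a single pair, and pair 2 holds sham 2. They therefore cannot show whether such arrays share more than a number. With the replicate block 0 subunit probes were called in either comparison, as without it.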
